A study of Saccharomyces cerevisiae with 10 samples.

Results

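The genes of adenine de novo synthesis are 8 members chosen by name: ADE4, ADE5,7, ADE8, ADE6, ADE2, ADE1, ADE13 and ADE17, out of 6816 single-gene rows in each of 9 deposited comparison tables. Their transcripts were read in budding yeast (Saccharomyces cerevisiae, S288C background) labelled as lacking a subunit of RSC or as WT. RSC is an essential complex that remodels the nucleosomes of promoters, and its subunits include Rsc1 or Rsc2, Htl1, Npl6 and Rtt102. Expression is given as FPKM, fragments scaled to transcript length and to the size of the library, a share of the polyadenylated RNA of a library. A difference is given as a log2 ratio of FPKM + 1 between the 2 libraries of a table, so that 1 stands for about a 2-fold difference. All 8 members were measured in all 9 comparisons, which means that the authors' status was OK and at least 1 library had 5 FPKM or more.

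The pathway builds the purine ring on a ribose phosphate, step by step, and ends at IMP, from which AMP and GMP are made. Yeast cells shut most of these genes down when adenine can be taken up, and the transcription factors Bas1 and Pho2 activate them together when the pathway intermediates accumulate. Several steps consume glycine or formyl groups carried by folate. Genes of one-carbon metabolism and some histidine genes are known to share the Bas1 control. Cells that lack Ade1 or Ade2 are known for a red pigment on media poor in adenine.

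Experiment 1 held 6 libraries from logarithmic cultures in YPD, a rich glucose medium: htl1Δ, npl6Δ, rsc1Δ, rsc2Δ, rtt102Δ and WT, each titled with 10 generations. Experiment 2 held htl1Δ and WT strains that all carried GALpr-HTL1, the HTL1 gene behind a galactose promoter. They were grown to saturation in YPGR, read here as a medium with galactose and raffinose, and then for 10 generations in YPD or in YPGR. All strains were segregants of heterozygous diploids. Every group was 1 library: there is no replicate check, nothing below was tested, and every value describes these libraries alone. In RNA from whole cultures, fewer cells that express a gene and less of its RNA per cell cannot be told apart.

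The libraries differed in more than the named gene. By the receptor genes STE2 (a cells) and STE3 (alpha cells), WT and npl6Δ of experiment 1 were of the alpha type and htl1Δ, rsc1Δ, rsc2Δ and rtt102Δ of the a type. In experiment 2 the YPD library labelled htl1Δ was of type a, with 575 FPKM of STE2, whereas the remaining 3 were alpha. It also held 145 FPKM of MET17 and 31.7 FPKM of LYS2, biosynthetic genes that were listed at 0 in WT in the same medium. HTL1 itself had 232 FPKM in the YPD library labelled htl1Δ, against 555 FPKM in WT. For comparison, WT of experiment 1 had 279 to 293 FPKM of HTL1. In YPGR the library labelled htl1Δ had 2782 FPKM of HTL1, so neither library of experiment 2 with this label lacked the transcript. The comparison of the YPD library labelled htl1Δ with WT in YPD therefore sets 2 strain backgrounds side by side, and strain and label cannot be told apart in it. In the comparison of that YPD library with YPGR, strain and medium cannot be told apart. In experiment 1 every deleted gene was near 0 in its own library, from 0 FPKM of RSC2 to 2.09 FPKM of HTL1. In npl6Δ, htl1Δ and rtt102Δ MET17 was at 0, and LYS2 was at 0.107 FPKM or less in htl1Δ, rsc1Δ and rsc2Δ. Depth was estimated at 9140000 to 12020000 fragments per library, and the member with the fewest fragments stood for about 650 to 1350 of them in each.

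The promoters were read for a short element by which the pathway is known to be controlled. The motif TGACTC, the core that Bas1 and Gcn4 are known to bind, was searched on both strands (as TGACTC or GAGTCA) in the 250 bases before each start codon. It was found in 6.25% of 6001 promoters and in 6 of the 8 members, all but ADE4 and ADE6. The 3 promoters printed here belong to the members that were at least 2-fold different in a comparison: ADE17, ADE2 and ADE13. They are from RefSeq's R64 assembly, read 5′ to 3′ on the strand of the gene, and end at the base before the start codon. Capitals mark TGACTC or GAGTCA. ADE17 lies at chrXIII:509281-509530, minus strand, ADE2 at chrXV:566192-566441, minus strand, and ADE13 at chrXII:844032-844281, plus strand.
ADE17: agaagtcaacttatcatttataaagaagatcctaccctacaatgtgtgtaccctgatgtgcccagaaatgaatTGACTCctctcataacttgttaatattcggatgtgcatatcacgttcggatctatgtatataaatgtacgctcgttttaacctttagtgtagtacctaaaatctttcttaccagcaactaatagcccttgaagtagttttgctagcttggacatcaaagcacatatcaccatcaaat
ADE2: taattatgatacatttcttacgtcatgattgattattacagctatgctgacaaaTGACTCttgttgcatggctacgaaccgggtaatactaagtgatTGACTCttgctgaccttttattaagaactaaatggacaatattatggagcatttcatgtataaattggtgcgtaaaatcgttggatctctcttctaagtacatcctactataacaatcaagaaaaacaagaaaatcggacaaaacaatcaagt
ADE13: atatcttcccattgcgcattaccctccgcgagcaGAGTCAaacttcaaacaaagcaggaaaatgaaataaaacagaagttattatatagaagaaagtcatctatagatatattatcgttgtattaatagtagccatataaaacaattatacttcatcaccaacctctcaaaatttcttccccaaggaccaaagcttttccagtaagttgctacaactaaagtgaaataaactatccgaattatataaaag
ADE17 and ADE13 each held 1 copy, which began 177 bases before the start codon of ADE17 and 216 bases before that of ADE13. ADE2 held 2 copies, at 196 and 153 bases. ADE5,7 (217 and 184 bases), ADE8 (181 and 167) and ADE1 (226 and 217) also held 2 copies each. The motif CGCGC (or GCGCG), the core known for the RSC subunits Rsc3 and Rsc30, was found in 9.83% of the promoters and in 0 of the 8 members. A match is only a run of letters and does not show that a factor binds.

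The 8 genes lie on 6 chromosomes and none overlaps another annotated gene. In sacCer3 they are ADE4 (YMR300C, chrXIII:865559-867091, minus strand), ADE5,7 (YGL234W, chrVII:56482-58890, plus), ADE8 (YDR408C, chrIV:1288215-1288859, minus) and ADE6 (YGR061C, chrVII:611889-615965, minus). The later steps are encoded by ADE2 (YOR128C, chrXV:564476-566191, minus), ADE1 (YAR015W, chrI:169375-170295, plus), ADE13 (YLR359W, chrXII:844282-845730, plus) and ADE17 (YMR120C, chrXIII:507502-509280, minus). The order of their levels was not the order of the pathway. On 1 scale for all libraries, ADE13, the adenylosuccinate lyase of IMP and AMP synthesis, had 395 FPKM in WT of experiment 1. ADE1, the SAICAR synthetase that comes just before it, had 284 FPKM, and ADE5,7, a bifunctional enzyme of the early steps, had 263 FPKM. ADE8, the glycinamide ribotide transformylase, had 217 FPKM. The other members were close to each other: 114 FPKM for ADE6, which encodes the FGAM synthetase, and 99.8 FPKM for ADE4, the PRPP amidotransferase that commits PRPP to the pathway. ADE2, the AIR carboxylase, was at 94.7 FPKM and ADE17, the AICAR transformylase and IMP cyclohydrolase, at 90.7 FPKM. With 1 library a group, whether neighbours in this order differ beyond their spread was not tested.

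**Figure D1:**
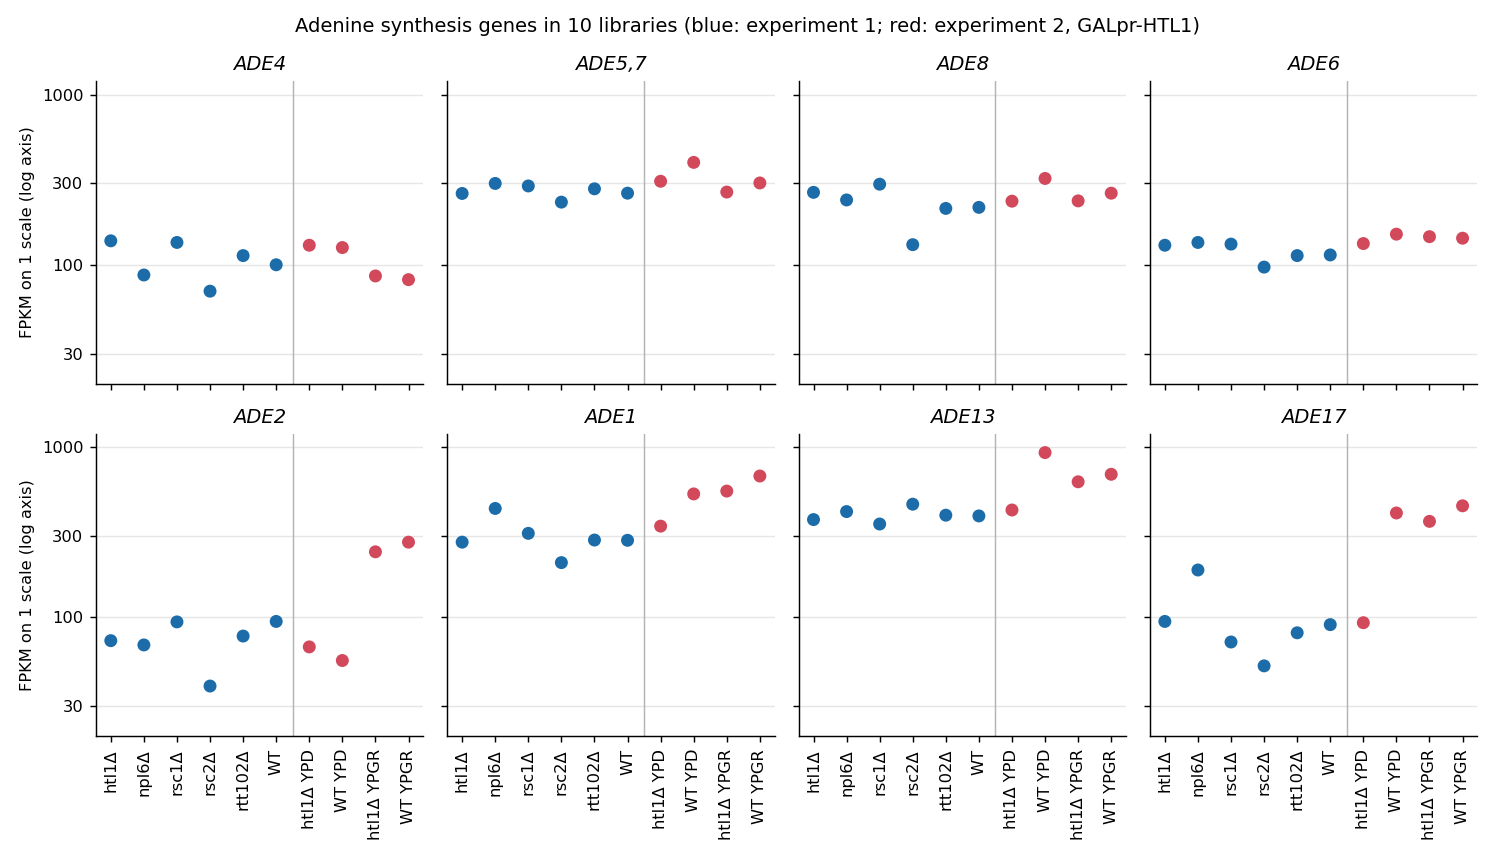
Each panel shows 1 member; the y axis is FPKM on 1 scale for all libraries (log axis) and each point is 1 library, blue for experiment 1 and red for experiment 2. ADE17 lies between 51.9 and 190 FPKM in experiment 1 and near 400 FPKM in 3 of the 4 libraries of experiment 2; ADE2 is highest in the 2 YPGR libraries; rsc2Δ is the lowest blue point for every member but ADE13.

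In rsc2Δ, transcripts of 7 of the 8 members were lower than in WT, with a median log2 ratio of -0.47 against 0.00 over all 6047 genes measured. Of all genes 50.1% had a ratio above 0, and of the members 1 did (ADE13). ADE2 was the only member at least 2-fold different, as 6.35% of all genes were. It had 37.8 FPKM in rsc2Δ, against 90.3 FPKM in WT, a log2 ratio of -1.24, and 1.41% of genes had a lower ratio. The authors' deposited table called 0 members in this comparison and 0.433% of the genes it tested.

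The lower values reached from the first step of the pathway to the last. ADE17 had 49.5 FPKM in rsc2Δ, against 86.4 FPKM in WT (log2 ratio -0.79). ADE8 had 125 FPKM in rsc2Δ, against 206 FPKM in WT (-0.72). ADE8 and ADE17 encode the 2 transformylases among the members, enzymes that add the folate-carried formyl groups. ADE16, which is not a member, encodes the isozyme of ADE17 and had 182 FPKM in rsc2Δ, against 204 FPKM in WT (-0.16). ADE4, the entry step, had 66.7 FPKM in rsc2Δ, against 95.1 FPKM in WT (-0.51), and ADE1 had 201 FPKM in rsc2Δ, against 271 FPKM in WT (-0.43). The smallest differences among the 7 were those of ADE6, with 92.3 FPKM in rsc2Δ and 109 FPKM in WT (-0.23), and ADE5,7, with 223 FPKM in rsc2Δ and 250 FPKM in WT (-0.17). ADE13 went the other way, with 442 FPKM in rsc2Δ and 376 FPKM in WT (0.23).

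The same library was also the lowest of the 6 in experiment 1 for 7 of the 8 members, where 21.7% of 5947 genes were lowest in rsc2Δ and 20.2% were highest. For ADE2 the 1-scale levels were 39.5 FPKM in rsc2Δ, 68.9 in npl6Δ, 73.0 in htl1Δ, 77.7 in rtt102Δ, 94.1 in rsc1Δ and 94.7 in WT. For ADE8 they were 131 FPKM in rsc2Δ and 214 to 297 FPKM in the other 5 libraries, so that rsc2Δ stood below all of them. Rsc1 and Rsc2 are paralogs that occupy alternative forms of RSC, and ADE8 was highest in rsc1Δ. Between these deletions, on ratios that share the WT library, rsc2Δ minus rsc1Δ was -1.22 for ADE2, -1.17 for ADE8, -0.92 for ADE4 and 0.40 for ADE13 on the log2 scale. Both were of the a type and low in LYS2, whereas WT was of the alpha type. They differed in MET17, with 53.5 FPKM in rsc1Δ and 139 FPKM in rsc2Δ. Against rtt102Δ, a library of the a type from the same experiment, the median of the members in rsc2Δ was -0.52, and ADE2 was at -0.94, ADE8 at -0.70 and ADE17 at -0.62. By that control no member passed the 2-fold rule. The median and the share past the rule over all genes are not given here for that control. The 2 strains were not matched in markers: LYS2 had 0.107 FPKM in rsc2Δ and 86.9 FPKM in rtt102Δ, and MET17 had 139 FPKM in rsc2Δ and was listed at 0 in rtt102Δ. The permease genes CAN1 (92.9 FPKM in rsc2Δ, 0.131 FPKM in rtt102Δ) and LYP1 (153 FPKM in rsc2Δ, 0.0628 FPKM in rtt102Δ) were nearly absent from rtt102Δ. The part of mating type and markers in the lower values was not tested.

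**Figure D2:**
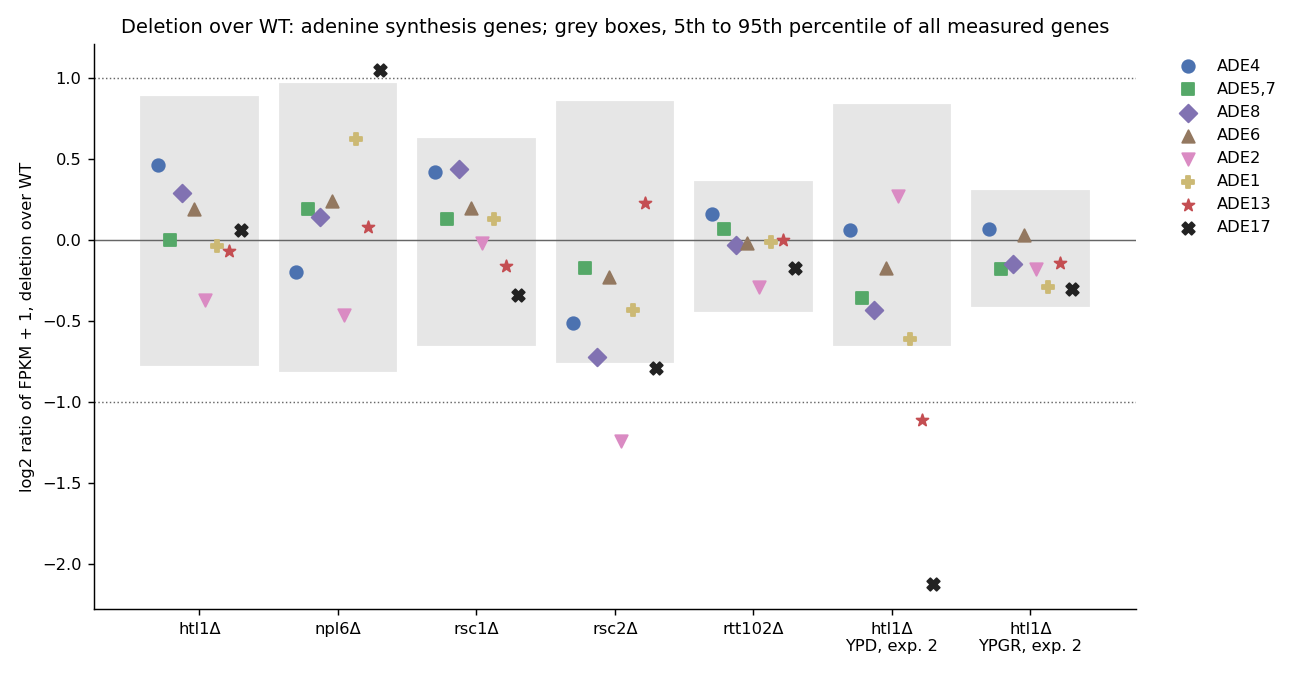
Log2 ratios of FPKM + 1, deletion over WT, for the 8 members (symbols) in 7 comparisons; grey boxes run from the 5th to the 95th percentile of all measured genes and dotted lines mark 2-fold. In rsc2Δ 7 symbols lie below 0, in npl6Δ ADE17 lies above the box at 1.05, and in YPD of experiment 2 ADE13 (-1.11) and ADE17 (-2.12) lie below it.

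ADE13 lies next to the gene removed in rsc2Δ, at chrXII:844282-845730 on the plus strand, 281 bases beyond the end of RSC2. Of 25 measured genes within 20 kb of RSC2, 12 had a ratio above 0 and 3 were at least 2-fold different, with a median of -0.01. ATG33, a mitophagy gene that lies before RSC2, had 131 FPKM in rsc2Δ, against 43.5 FPKM in WT (log2 ratio 1.57), and GRX8, a glutaredoxin gene, was at 1.13. YLR358C, which overlaps the end of RSC2, was at -4.71. So the genes on both sides of the removed gene, ATG33 and ADE13, were higher in rsc2Δ than in WT, by very different amounts; the part of the deletion itself in the value of ADE13 was not tested. ADE6 lies 7441 bases beyond RSC1, at chrVII:611889-615965 on the minus strand. In rsc1Δ it was at 128 FPKM, against 111 FPKM in WT (0.20), where the 19 measured genes within 20 kb had a median of 0.02 and 1 of them, FMP48, was at least 2-fold different (1.10). Without ADE13 the median of the members in rsc2Δ was -0.51, and without ADE6 that in rsc1Δ was 0.13.

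**Figure D3:**
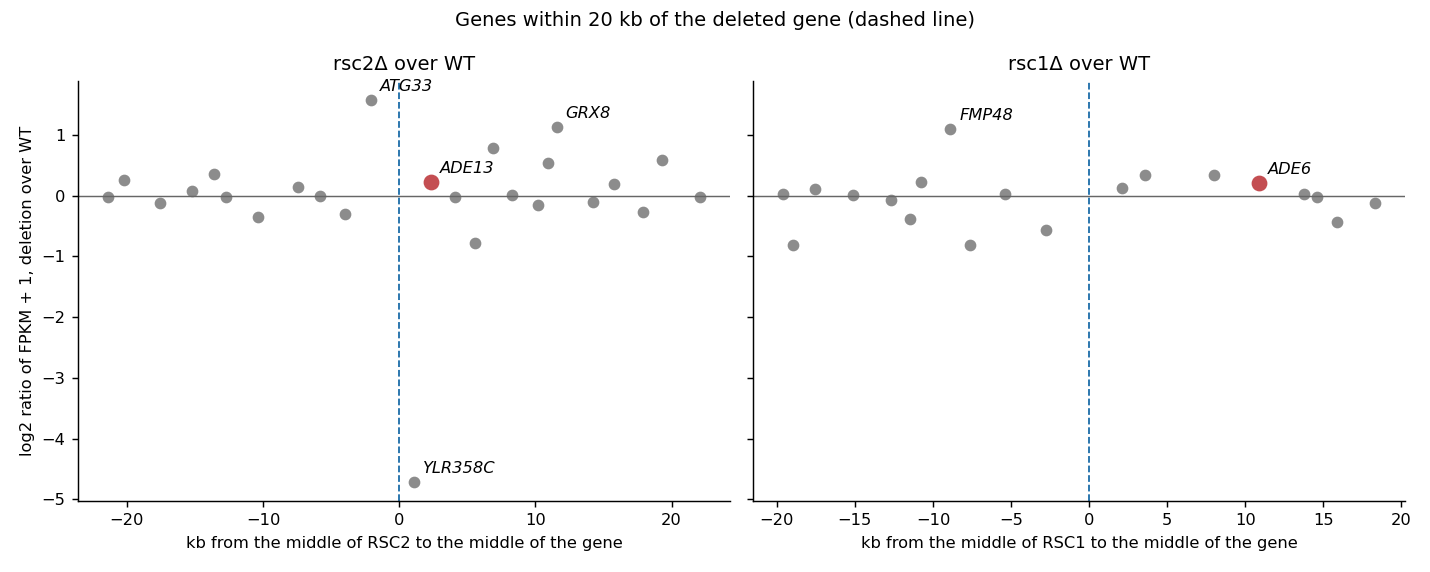
Log2 ratios of FPKM + 1, deletion over WT, of measured genes within 20 kb of RSC2 (rsc2Δ, left) and RSC1 (rsc1Δ, right), by distance in kb from the middle of the deleted gene (dashed line). Red points are ADE13 (0.23) and ADE6 (0.20); ATG33, next to RSC2, stands at 1.57.

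In npl6Δ, ADE17 and ADE1 were higher than in WT while ADE2 and ADE4 were lower. ADE17 had 188 FPKM in npl6Δ, against 89.8 FPKM in WT, a log2 ratio of 1.05, and was the only member at least 2-fold different, as 7.85% of all 6051 genes were. With a pseudocount of 10 FPKM it fell short of the rule, and 0 members passed. ADE1 had 432 FPKM in npl6Δ, against 281 FPKM in WT (0.62). On 1 scale both were highest in npl6Δ among the 6 libraries of experiment 1, and so were ADE5,7 and ADE6, whose ratios were 0.19 and 0.24. ADE2 had 68.1 FPKM in npl6Δ, against 93.8 FPKM in WT (-0.46), and ADE4 had 85.9 FPKM in npl6Δ, against 98.8 FPKM in WT (-0.20). ADE8 (0.14) and ADE13 (0.08) were close to WT. Thus 6 of 8 members had a ratio above 0, as 50.5% of all genes did, and the median was 0.17. The authors' deposited table called 0 members and 0.435% of the genes it tested. These 2 libraries share the alpha type but differ in MET17.

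In htl1Δ of experiment 1 the pathway showed no common direction. The median log2 ratio was 0.03, with 4 of 8 members above 0 beside 50.0% of all 6044 genes, and 0 members were at least 2-fold different, against 6.75% of all genes. ADE4 was highest here among the 6 libraries, with 138 FPKM in htl1Δ, against 99.9 FPKM in WT (0.46). ADE8 had 266 FPKM in htl1Δ, against 217 FPKM in WT (0.29), and ADE6 had 130 FPKM in htl1Δ, against 114 FPKM in WT (0.19). ADE2 was lower, with 72.9 FPKM in htl1Δ, against 94.8 FPKM in WT (-0.37). ADE17 had 94.6 FPKM in htl1Δ, against 90.8 FPKM in WT (0.06), and ADE5,7, ADE1 and ADE13 were between -0.07 and 0.00. The authors' deposited table called 0 members and 0.514% of the genes tested.

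In rsc1Δ the early genes were higher and the last ones lower than in WT, all by less than 2-fold. ADE8 had 288 FPKM in rsc1Δ, against 211 FPKM in WT (0.44), and ADE4 had 130 FPKM in rsc1Δ, against 97.3 FPKM in WT (0.42). ADE17 had 69.5 FPKM in rsc1Δ, against 88.4 FPKM in WT (-0.34), and ADE13 had 343 FPKM in rsc1Δ, against 385 FPKM in WT (-0.16). ADE2 was nearly level, with 91.2 FPKM in rsc1Δ and 92.3 FPKM in WT (-0.02). In all, 5 of 8 members were above 0 (50.5% of all 6019 genes), the median was 0.13, and 0 members passed the 2-fold rule, which 4.15% of all genes passed. The authors' deposited table called 0 members and 0.516% of the genes tested.

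In rtt102Δ the members stayed nearest to WT in experiment 1. Their ratios ran from -0.29 for ADE2, with 74.8 FPKM in rtt102Δ, against 91.9 FPKM in WT, to 0.16 for ADE4, with 109 FPKM in rtt102Δ, against 96.8 FPKM in WT. The median was -0.02, 3 of 8 members were above 0 (50.9% of all 5988 genes), and 0 members were at least 2-fold different, as were 2.44% of all genes. The authors' deposited table called 0 members and 0.486% of the genes tested. In 4 of the 5 deletions of experiment 1, which all share the same WT library, ADE2 was between -1.24 and -0.29, and in rsc1Δ it was nearly level with WT (-0.02). Over the 6 libraries the spread from lowest to highest was 1.84 on the log2 scale for ADE17, 1.24 for ADE2, 1.17 for ADE8, 1.05 for ADE1 and 0.97 for ADE4. It was 0.47 for ADE6, 0.40 for ADE13 and 0.36 for ADE5,7.

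In YPD of experiment 2 the last members in pathway order were far lower in the library labelled htl1Δ than in WT. ADE17 had 95.5 FPKM in the library labelled htl1Δ, against 417 FPKM in WT, a log2 ratio of -2.12, and 0.46% of genes had a lower ratio. In the authors' deposited table it was called, with a q-value of 0.00931, as were 0.69% of the genes tested. It was the only call of a member in any of the 9 tables. ADE13, which acts just before it, had 439 FPKM in the library labelled htl1Δ, against 946 FPKM in WT (-1.11), and was the other of the 2 members at least 2-fold different, where 5.84% of all 6081 genes were. ADE1, the step before ADE13, had 353 FPKM in the library labelled htl1Δ, against 540 FPKM in WT (-0.61). ADE8 had 242 FPKM in the library labelled htl1Δ, against 326 FPKM in WT (-0.43), and ADE5,7 had 317 FPKM in the library labelled htl1Δ, against 405 FPKM in WT (-0.36). The ratio was -0.17 for ADE6, 0.06 for ADE4 and 0.27 for ADE2, the last with 68.8 FPKM in the library labelled htl1Δ and 56.7 FPKM in WT. The median was -0.39, and 2 of 8 members were above 0, as 48.9% of all genes were.

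Among the libraries grown in YPD, WT of experiment 2 was the one high in ADE17. On 1 scale ADE17 was at 93.1 FPKM in the YPD library labelled htl1Δ, close to 94.7 FPKM in htl1Δ and 90.7 FPKM in WT of experiment 1. It was at 411 FPKM in WT in YPD of experiment 2. The 2 YPGR libraries, with 367 FPKM in htl1Δ and 453 FPKM in WT, were as high as that. The 3 libraries near 400 FPKM were all of the alpha type with MET17 listed at 0. LYS2 was at 0.110 FPKM or less in these 3. In experiment 1 npl6Δ, alpha with MET17 at 0 but with 47.0 FPKM of LYS2, had 190 FPKM of ADE17. In the same experiment WT (alpha, 155 FPKM of MET17, 27.9 FPKM of LYS2) had 90.7 FPKM, htl1Δ (type a, MET17 at 0, 0.0521 FPKM of LYS2) had 94.7 FPKM, and rtt102Δ (type a, MET17 at 0, 86.9 FPKM of LYS2) had 81.2 FPKM. The part of mating type and markers in the level of ADE17 was not tested. ADE16, the isozyme of the same step, did not show this contrast: it had 184 FPKM in the YPD library labelled htl1Δ, against 215 FPKM in WT (-0.23). The coding sequences of ADE16 and ADE17 were 74.7% identical, with no shared run beyond 19 bases.

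In YPGR, where HTL1 had 2782 FPKM in htl1Δ, against 2973 FPKM in WT, the members differed little. The 2 libraries were of the same mating type. ADE17 had 400 FPKM in htl1Δ, against 495 FPKM in WT (-0.30), and ADE1 had 604 FPKM in htl1Δ, against 740 FPKM in WT (-0.29), the lowest ratios of the set. ADE13 had 685 FPKM in htl1Δ, against 757 FPKM in WT (-0.14). ADE5,7 and ADE2 were at -0.18, ADE8 at -0.15, ADE6 at 0.03 and ADE4 at 0.07. Of the 8 members 2 were above 0 (49.3% of all 6061 genes), the median was -0.16, and 0 were at least 2-fold different, as were 1.68% of all genes. The authors' deposited table called 0 genes here, 0% of those tested. The YPD and YPGR comparisons of htl1Δ with WT have separate libraries.

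Between media, ADE2 was the lowest member in WT, and in the pair labelled htl1Δ ADE2 and ADE17 were both low. In WT ADE2 was at 58.5 FPKM in YPD and 286 FPKM in YPGR, a log2 ratio of -2.27, and 2.93% of genes had a lower ratio. In the pair labelled htl1Δ ADE2 had 71.7 FPKM in YPD and 260 FPKM in YPGR (-1.84). In WT it was the only member at least 2-fold different, in a comparison where 26.2% of all 6080 genes were. The early genes were somewhat higher in YPD in WT: ADE4 was at 132 FPKM in YPD and 84.3 FPKM in YPGR (0.64), and ADE5,7 was at 418 FPKM in YPD and 312 FPKM in YPGR (0.42). ADE13 was at 975 FPKM in YPD and 717 FPKM in YPGR (0.44), and ADE8 was at 336 FPKM in YPD and 272 FPKM in YPGR (0.31). ADE17 (-0.12), ADE6 (0.09) and ADE1 (-0.33) were closer to level. In WT 5 of 8 members were above 0 (50.5% of all genes), with a median of 0.20. That median was -0.02 with ADE16 and ADE12 added, and 0.36 without ADE2 and ADE17. The authors' deposited table called 0 members and 0.112% of the genes tested.

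In the pair labelled htl1Δ, whose 2 libraries are of different mating types, ADE17 joined ADE2. ADE17 was at 99.6 FPKM in YPD and 392 FPKM in YPGR (-1.97), where 27.0% of all 6126 genes were at least 2-fold different. ADE1 was at 368 FPKM in YPD and 592 FPKM in YPGR (-0.68), and ADE13 was at 457 FPKM in YPD and 671 FPKM in YPGR (-0.55). ADE4 was again higher in YPD, at 139 FPKM, against 91.8 FPKM in YPGR (0.60). ADE5,7 was at 0.21, ADE8 at 0.00 and ADE6 at -0.14. Thus 2 of 8 members were above 0 (49.7% of all genes), and 2 of 8 passed the 2-fold rule. The median was -0.34, and -0.07 without ADE2 and ADE17. The authors' deposited table called 0 members and 0.224% of the genes tested. The ratio between media differed least between the pairs for ADE4 (-0.04, htl1Δ minus WT, log2) and most for ADE17 (-1.84).

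**Figure D4:**
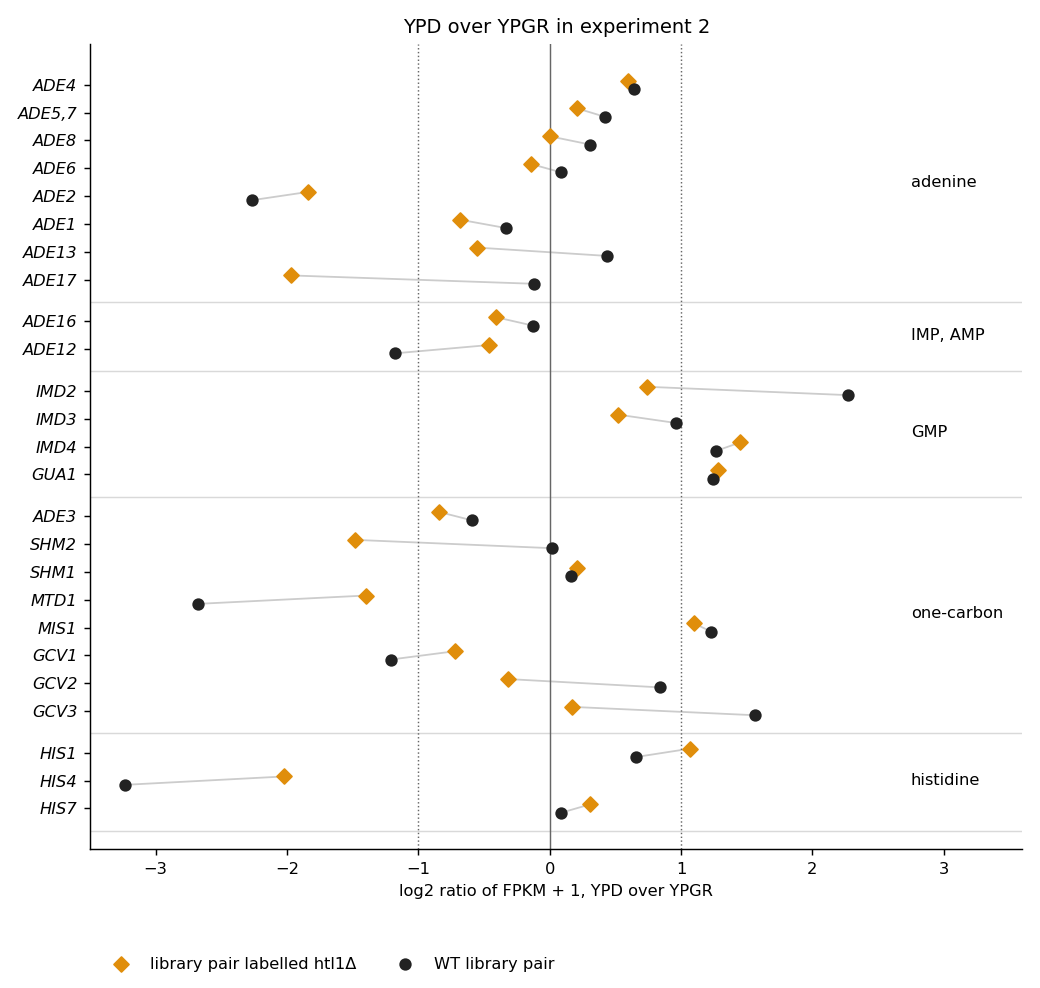
Log2 ratios of FPKM + 1, YPD over YPGR, in the library pair labelled htl1Δ (diamonds) and in the WT pair (circles), for the 8 members and for related lists; dotted lines mark 2-fold. ADE2, MTD1 and HIS4 lie left of -1 in both pairs, the 4 genes of the GMP branch lie right of 0 in both, and ADE17 lies at -1.97 in htl1Δ and -0.12 in WT.

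Of the related genes, some followed the members and others did not. In rsc2Δ, 50.1% of all genes had a ratio above 0 and 6.35% were at least 2-fold different. Of the 8 genes of one-carbon and glycine metabolism 7 were below WT there, with a median log2 ratio of -0.28. So were all 3 histidine genes known as Bas1 targets (median -0.29). MTD1, a cytosolic methylene-tetrahydrofolate dehydrogenase, was the only one of these 11 at least 2-fold different, with 52.5 FPKM in rsc2Δ and 122 FPKM in WT (-1.20). ADE12, which encodes the adenylosuccinate synthase that leads from IMP to AMP, was at -0.48 and ADE16 at -0.16 in rsc2Δ. Of the 5 PRPP synthetase genes 2 were above 0 there (median -0.05). Among the regulators, BAS1 had 25.0 FPKM in rsc2Δ, against 19.2 FPKM in WT (0.36), GCN4 was at 0.38 and PHO2 at -0.01, so none of the 3 regulator transcripts was below WT by more than 0.01.

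In htl1Δ and npl6Δ of experiment 1 several related genes differed by more than the members did. Of the 8 one-carbon genes 3 in htl1Δ and 3 in npl6Δ were higher by 2-fold or more, and 0 were as much lower, beside 6.75% of all genes past the rule in htl1Δ and 7.85% in npl6Δ, with medians of 0.01 in htl1Δ and 0.63 in npl6Δ. BAS1 had 50.9 FPKM in htl1Δ, against 20.1 FPKM in WT (1.30), and had 52.8 FPKM in npl6Δ, against 19.9 FPKM in WT (1.36). HIS4 was at 1.40 in htl1Δ and 1.78 in npl6Δ, and FCY2, the purine-cytosine permease gene, was at 1.22 in htl1Δ and 1.21 in npl6Δ, while the guanine deaminase gene GUD1 was at -1.16 in htl1Δ and -1.32 in npl6Δ. The genes of the glycine cleavage system were also higher: GCV2 was at 1.68 in htl1Δ and 2.80 in npl6Δ, GCV1 was at 1.06 in htl1Δ and 1.68 in npl6Δ, and GCV3 at 1.06 in htl1Δ and 1.98 in npl6Δ. AAH1, the adenine deaminase gene of salvage, was at 1.06 in npl6Δ. In rsc1Δ, where 4.15% of all genes passed the rule, GCV1 was at 1.09, GCV2 at 0.90, GCV3 at 0.78 and BAS1 at 0.86. These comparisons share the WT library. IMD2, an IMP dehydrogenase gene of the GMP branch, was lower in 3 a-type deletions and called in the authors' deposited table for each: 18.2 FPKM in htl1Δ and 110 FPKM in WT (-2.53), 20.7 FPKM in rsc1Δ and 107 FPKM in WT (-2.32), and 33.3 FPKM in rsc2Δ and 105 FPKM in WT (-1.62). In the fourth deletion of the a type, rtt102Δ, IMD2 was at 109 FPKM, against 107 FPKM in WT (0.04). In npl6Δ, of the alpha type like WT, it was at 70.2 FPKM, against 109 FPKM in WT (-0.62).

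In YPD of experiment 2, SHM2, the cytosolic serine hydroxymethyltransferase that supplies folate-bound one-carbon units, had a contrast like that of ADE17. It had 201 FPKM in the library labelled htl1Δ, against 727 FPKM in WT (-1.85), and GCV3 was at -1.69. Both were called in the authors' deposited table. With GCV2 (-1.35) they made up the 3 of 8 one-carbon genes that were at least 2-fold lower, and 0 were as much higher, in a comparison where 5.84% of all genes passed the rule. HIS4 went the other way, at 1.43, and ADE12 was at 0.67. In experiment 1 SHM2 had 276 FPKM in htl1Δ and 268 FPKM in WT.

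Between media the GMP branch and ADE12 of the AMP branch differed in direction. Of all genes, 50.5% had a ratio above 0 in WT and 49.7% in the pair labelled htl1Δ. All 4 genes of the GMP branch were higher in YPD, in WT (median 1.26) and in the pair labelled htl1Δ (1.01). IMD2 led them in WT, at 77.9 FPKM in YPD and 15.3 FPKM in YPGR (2.27). Of these 4, 3 were at least 2-fold higher in WT (IMD2, IMD4 at 1.27 and GUA1 at 1.24), beside 26.2% of all genes past the rule, and 2 in the pair labelled htl1Δ (IMD4 at 1.45 and GUA1 at 1.28), beside 27.0%. ADE12 was at 194 FPKM in YPD and 440 FPKM in YPGR in WT (-1.18), and at -0.46 in the pair labelled htl1Δ. ADE13, which also acts in AMP synthesis, was at 0.44 in WT, the direction of the GMP branch. In the pair labelled htl1Δ ADE13 was at -0.55. MTD1 and HIS4 were low in YPD together with ADE2: in WT MTD1 was at 58.2 FPKM in YPD and 377 FPKM in YPGR (-2.68), and HIS4 was at 32.1 FPKM in YPD and 309 FPKM in YPGR (-3.23). In the pair labelled htl1Δ MTD1 was at -1.40, HIS4 at -2.02 and SHM2 at -1.48. The other Bas1-linked histidine genes HIS1 and HIS7 were above 0 in both library pairs, and HIS1 was at 1.07 in the pair labelled htl1Δ. Among the remaining one-carbon genes MIS1, the mitochondrial C1-tetrahydrofolate synthase gene, was at 1.23 in WT and 1.10 in the pair labelled htl1Δ, and in WT GCV3 was at 1.56 and GCV1 at -1.21. BAS1 was higher in YPD, at 45.3 FPKM, against 16.8 FPKM in YPGR in WT (1.38). In the pair labelled htl1Δ BAS1 was at 1.25. Of the salvage genes, AAH1 was at 553 FPKM in YPD and 109 FPKM in YPGR in WT (2.34) and at 2.17 in the pair labelled htl1Δ, while GUD1 was at -1.36 in WT and -1.56 in the pair labelled htl1Δ. All 5 PRPP synthetase genes were above 0 in both library pairs, with PRS1 at 1.34 in each and PRS5 at 1.08 in WT. TGACTC, found in 6.25% of all 6001 promoters, stood in those of 6 of the 8 one-carbon genes and all 3 histidine genes. It also stood in those of ADE12 and 3 of the 12 salvage genes. It was in 0 of those of the GMP branch (4 genes), the PRPP synthetases (5) and the regulators (3).

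The genes most like the members were found by the correlation of log2 levels with the mean of the 8 members over 10 libraries, among 5972 genes. They were YMR194C-A (Pearson's r 0.973), DCN1 (0.949), YPR014C (0.942), BNA6 (0.922) and SHM2 (0.920). DCN1 encodes a factor of cullin modification, and BNA6 an enzyme of NAD synthesis that uses PRPP. Over the 6 libraries of experiment 1 alone, r was 0.970 for YMR194C-A, 0.984 for DCN1 and 0.969 for YPR014C. It was 0.731 for BNA6 and 0.857 for SHM2. All 5 were lowest in rsc2Δ and highest in WT in YPGR, extremes they share with the member mean by which they were picked. The member mean itself was lowest in rsc2Δ, at 6.91 on the log2 scale, and highest in WT in YPGR, at 8.20, with 7.40 in WT of experiment 1. The points share libraries, scaling and the split between experiments, and the correlation is a description only.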

How the data were processed

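Polyadenylated RNA of 10 libraries was sequenced with an Illumina HiSeq instrument, as the labels' protocols state. TopHat, Cufflinks, Cuffdiff and the sacCer3 build are named in the submitters' processing notes, with versions not given in the sources used here. In all, the authors deposited 9 tables, each with the FPKM of 2 libraries, which their processing scaled within the table. The same library therefore differed between tables by a constant factor (0.952 to 0.989 for WT of experiment 1 relative to its htl1Δ table), and ratios were taken within a table. The deposited p-values and q-values come from the authors' test of 2 single libraries; they compare libraries, not strains. Strandedness was not given in the sources used here.

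Of 6931 rows per table, 115 naming several genes were left out. Ratios are log2 of (FPKM + 1), deletion over WT or YPD over YPGR, for rows with the status OK and at least 5 FPKM in 1 library; the pseudocount understates differences of low genes. The 2-fold rule (an absolute log2 ratio of 1) is a rule of size. Levels on 1 scale were divided by the median ratio of each column to the geometric mean of all columns. Gene names and promoters came from the R64 annotation, which matched 5847 identifiers, 5346 with the same coordinates; those of all 8 members were the same. Depth was estimated from steps between low values, of which 78.0% to 86.1% were whole to within 0.1; no counting interval was made from it.

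The members and the gene lists were chosen with earlier results of these data known. All members are named; other listed genes are named past the 2-fold rule (at most 4 per list and comparison), with ADE16, ADE12, the regulators, the deleted genes, the marker genes, neighbours of RSC1 and RSC2 and the 5 most alike genes besides. HIS1 and HIS7 and the values of listed genes below that limit were added after they were seen. Alternatives were pseudocounts of 0.1 and 10 FPKM, centred ratios, a 1.5-fold rule, no filter or 20 FPKM, ADE16 and ADE12 added, and neighbours of deleted genes left out; rtt102Δ as control, and ADE2 and ADE17 left out, were added after the data were seen. Of the steps, the ratio and the 2-fold rule were tested on simulated data. Python 3.11.15, pandas 2.3.3, NumPy 2.4.6, Biopython 1.88 and matplotlib 3.10.9 were used.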

Additional observations from a re-analysis of the deposited data

Results flagged for a closer look

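For 4 of the 8 members the log2 ratio over WT in YPD had opposite signs for htl1Δ of experiment 1 and for the YPD library labelled htl1Δ of experiment 2. Of all genes 50.0% had a ratio above 0 in the comparison of experiment 1 and 48.9% in that of experiment 2. The share of all genes with opposite signs is not given here. HTL1 was at 2.09 FPKM in htl1Δ of experiment 1 and at 232 FPKM in the library so labelled in experiment 2, so the 2 comparisons are not repeats of each other. In YPD of experiment 2 minus experiment 1 the difference was -0.72 for ADE8, -0.36 for ADE6, 0.65 for ADE2 and -2.18 for ADE17. The ratio of ADE17 in experiment 1 was itself only 0.06. The YPD library labelled htl1Δ of experiment 2 was of type a and held MET17 and LYS2, which its alpha WT lacked. In experiment 1 htl1Δ was also of type a beside an alpha WT, but there MET17 and LYS2 were at or near 0 in htl1Δ and present in WT.

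For 3 of the 8 members the ratio of YPD over YPGR had opposite signs in the 2 library pairs. Of all genes 50.5% had a ratio above 0 in the WT pair and 49.7% in the pair labelled htl1Δ. The share of all genes with opposite signs in the pairs is not given here. In the pair labelled htl1Δ the YPD library was of type a and held MET17 and LYS2. Its YPGR library was of the alpha type, with both genes at or near 0. In this pair strain and medium cannot be told apart. For the pair labelled htl1Δ minus the WT pair the difference was -0.31 for ADE8, -0.23 for ADE6 and -1.0 for ADE13; the htl1Δ ratio of ADE8 was itself 0.00 when rounded. Each group had 1 library, so these differences were not tested.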

How the results depend on the processing

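With a pseudocount of 0.1 or 10 FPKM, or with ratios centred on the median of all genes, all 9 medians of the members moved by less than 0.1 on the log2 scale, and single members by at most 0.02, 0.17 and 0.01. With a pseudocount of 10 FPKM 0 members passed the 2-fold rule in npl6Δ, since ADE17 was just past it. By a 1.5-fold rule 2 members passed in npl6Δ, 3 in rsc2Δ, 3 for the YPD library labelled htl1Δ, 2 between media in WT and 4 in the pair labelled htl1Δ. The share of all genes past the 1.5-fold rule is not given here, so these counts have no background to be set against. With ADE16 and ADE12 added, the median was -0.29 in YPD of experiment 2 for the library labelled htl1Δ over WT and -0.02 for YPD over YPGR in WT, so that its sign rests on ADE12 and ADE16. Without ADE2 and ADE17 the medians between media were 0.36 in WT and -0.07 in the pair labelled htl1Δ, so their size rests on those members. With rtt102Δ as the control, 0 members passed the 2-fold rule in rsc2Δ, and the share of all genes past it is not given here. The 3 medians so computed, from -0.52 to 0.18, kept within 0.1 of those against WT. The percentage of all genes past the 2-fold rule ran from 1.96 to 27.2 with no filter and from 1.25 to 27.6 with a minimum of 20 FPKM. No paired analysis was possible because each group has 1 library.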
